A study of Macaca mulatta with 6 samples.

Results

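Integrins, laminins and nidogens were described in bulk RNA sequencing of rhesus monkey spermatogonial stem cells (SSCs) in culture. SSCs are the cells of the testis from which sperm are made throughout adult life. The members were the rows of the deposited count table whose symbol names an integrin alpha or beta subunit, a laminin alpha, beta or gamma chain, or a nidogen, without the integrin-binding proteins and the integrin-like gene whose symbols start alike. This gave 39 of 17795 genes, namely 26 integrin subunits, 11 laminin chains and 2 nidogens. Platelet-derived growth factor (PDGF) of human sequence was in the medium of the SSCs behind 3 libraries (PDGF+) and absent from that behind 3 others (PDGF-). In both groups replicate 1 belonged to batch 1 and replicates 2 and 3 to batch 2.

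By the culture methods, the medium of the SSCs also held serum, GDNF, EGF, bFGF, LIF and Wnt3a. Cells were embedded in droplets of a growth-factor-reduced basement membrane extract, while the account of the cultures speaks of a collagen hydrogel. Such an extract consists mainly of laminin, collagen IV and nidogen protein, and the libraries measured the RNA of the cells, not this protein. Donors, ages, days in culture and whether replicates came from separate cultures are not given in the sources used here. The p-values therefore measure the spread between these libraries, which may be technical. The comparison asked how the RNA of the cultured cells differed with PDGF.

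Laminins are secreted trimers of 1 alpha, 1 beta and 1 gamma chain that polymerise into the basement membrane, and nidogens bind laminin and collagen IV and link their networks. Integrins are surface receptors made of 1 alpha and 1 beta subunit, and the pairing decides whether a cell binds collagen, laminin, or proteins with an RGD motif such as fibronectin. In the testis a basement membrane surrounds each seminiferous tubule, and the spermatogonia that rest on it are known to carry laminin-binding integrins with the alpha6 and beta1 subunits.

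The libraries held between 10593805 and 14102697 counts, and each PDGF+ library was larger than each PDGF- library. Abundant RNA in both groups was that of stromal cells: 8 fibroblast and stroma markers summed to between 13910 and 19150 CPM, counts scaled to a common library size, in PDGF+ and between 16780 and 18940 CPM in PDGF-. The spermatogonial markers summed to between 377 and 437 CPM in PDGF+ and between 354 and 466 CPM in PDGF-. UCHL1, the most abundant of the 12, and ID4 made up most of these sums. Of the 6 markers tested, UCHL1 was the only one called higher, with a log2 fold change of 0.51. FGFR3, DDX4 and TSPAN33 were called lower, at -2.07, -2.72 and -3.56. The overlapping sums therefore do not show how the less abundant markers differed. Members of this list differed widely in level. ID4, which the paper uses with GFRA1 to mark undifferentiated SSCs, stood at 127, 135 and 130 CPM in PDGF+. In PDGF- it stood at 148, 166 and 177 CPM, and the difference did not pass the test described below. GFRA1 and NANOS2 were near the floor. GFRA1 had 3, 0 and 2 counts in PDGF+ and 9, 2 and 7 counts in PDGF-, and NANOS2 had 0 counts in every library. Genes of spermatids, the cells after meiosis, were well above the floor and differed. Their 8 markers summed to between 114 and 157 CPM in PDGF+ and between 640 and 949 CPM in PDGF-, and all 6 that were tested were lower, with a median log2 fold change of -3.18. TNP1, which packs sperm DNA, had 374, 491 and 349 counts in PDGF+ and 2499, 3513 and 3533 counts in PDGF-. The stromal markers thus summed to far more CPM than the spermatogonial ones, and the levels below are those of the whole culture. In bulk RNA, a larger share of cells of one kind and more RNA per cell cannot be told apart.

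Of the 39 members, 30 passed the filter on low counts and were tested with all 11539 genes that passed, by the quasi-likelihood test of edgeR with Benjamini-Hochberg adjustment. With PDGF, 13 members were higher and 4 lower at an adjusted p under 0.05, and the other 13 did not pass. Over all genes tested, 7.61% were called higher and 10.7% lower. The median log2 fold change was 0.50 over the 30 tested members and 0.02 over all genes tested. The higher members were the collagen receptor subunits ITGA1, ITGA2 and ITGA10, the further integrin subunits ITGA4, ITGA8, ITGB2, ITGB3 and ITGB5, the laminin chains LAMA2, LAMB1, LAMC1 and LAMC3, and the nidogen NID2. The lower members were the laminin receptor subunits ITGA3, ITGA6 and ITGA7 and the laminin chain LAMB3.

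None of the 17 called members overlapped between the groups. Overlap was also absent for 23 of the 30 tested members and for 37.6% of all genes tested. The libraries of a batch lay close together, and adding the replicate number to the model as a block, which takes this into account, called 20 members higher and 6 lower, where 31.1% and 29.0% of all genes were called. All 17 calls were kept there. ITGAE, whose counts could not be assigned to it, as described below, is among the 20 and the 23.

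**Figure D1:**
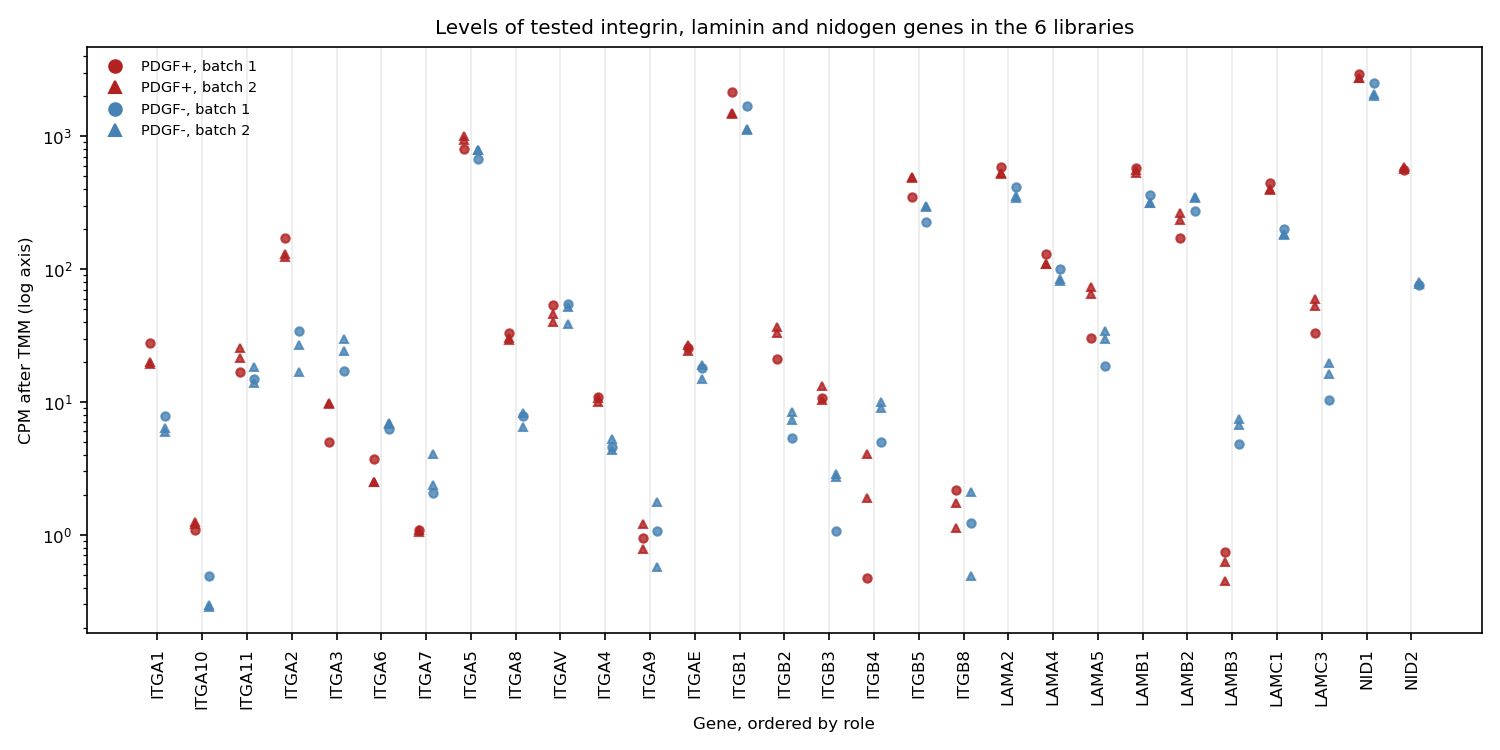
Level of 29 tested genes in CPM, on a log axis, in the 3 PDGF+ (red) and 3 PDGF- (blue) libraries, with batch 1 as circles and batch 2 as triangles. The groups lie furthest apart at NID2, ITGA2, ITGB3 and LAMB3, and NID1 and ITGB1 have the highest CPM. CPM does not correct for gene length, so heights of different genes are not levels to be compared.

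Of the 4 collagen-binding alpha subunits, all tested, 3 were higher and none lower, and the median log2 fold change was 1.70. ITGA2, the alpha subunit of a high-affinity receptor for fibrillar collagen, stood at 172, 123 and 130 CPM in PDGF+ and at 34.1, 16.7 and 26.9 CPM in PDGF-. Every PDGF+ library lay above every PDGF- library, and the log2 fold change was 2.45 ± 0.27 (SE, n = 3 and 3, edgeR's adjusted p = 9.5e-04). Within batch 1 the log2 difference was 2.33, and within batch 2 it was 2.57.

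ITGA1, whose receptor prefers collagen IV, showed the same order at lower counts. It stood at 27.7, 19.2 and 20.1 CPM in PDGF+ and at 7.88, 5.94 and 6.37 CPM in PDGF-, a log2 fold change of 1.73 ± 0.22 (edgeR's adjusted p = 0.0018). In both groups the batch 1 library was the highest. ITGA10, a collagen receptor subunit known from cartilage, had 16 counts in each PDGF+ library against 6, 3 and 3 counts, and its call (log2 fold change 1.67 ± 0.46, edgeR's adjusted p = 0.039) rested on these few reads. It was lost when any library but PDGF- replicate 1 was left out, with adjusted p-values between 0.079 and 0.13, and also in DESeq2.

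ITGA11, the fourth collagen-binding subunit and one of mesenchymal cells, stood at 16.9, 25.6 and 21.4 CPM in PDGF+ and at 14.9, 13.9 and 18.4 CPM in PDGF-, with overlapping groups. Its log2 fold change of 0.44 ± 0.21 did not pass (edgeR's adjusted p = 0.19), and with the replicate block it did (adjusted p = 0.013). Because ITGA2 differed far more than ITGA11, the make-up of these subunits differed between the groups. In TPM, a level that corrects for gene length, ITGA2 held 72.4% ± 4.9 (SD, n = 3) of the 4 genes' sum in PDGF+ and 44.4% ± 7.5 in PDGF-. ITGA11 held 18.6% ± 5.5 and 46.3% ± 7.4 of it. The share of ITGA1 was close to 8% in both groups, at 8.16% ± 0.70 and 8.52% ± 1.2. Summed in TPM, the 4 subunits stood at 67.5, 48.7 and 50.1 in PDGF+ and at 18.0, 10.61 and 14.7 in PDGF-.

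The laminin-binding alpha subunits went the other way: all 3 were lower, with a median log2 fold change of -1.37. ITGA3, a laminin receptor subunit of epithelia, stood at 4.995, 9.78 and 9.62 CPM in PDGF+ and at 17.0, 29.6 and 24.2 CPM in PDGF-. The batch 1 library was the lowest in both groups, and the log2 fold change was -1.54 ± 0.31 (edgeR's adjusted p = 0.012). The log2 difference was -1.76 within batch 1 and -1.46 within batch 2. Without PDGF- replicate 2 the adjusted p was 0.051.

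ITGA6, the laminin receptor subunit that is used to sort spermatogonia, stood at 3.71, 2.50 and 2.48 CPM in PDGF+ and at 6.24, 6.99 and 6.86 CPM in PDGF-. Its log2 fold change was -1.20 ± 0.26 (edgeR's adjusted p = 0.016), with the batch 1 libraries nearest to each other. Of the 6 spermatogonial markers tested 1 was higher and 3 were lower, and DDX4, a gene of all germ cells, had 9, 2 and 2 counts in PDGF+ and 18, 38 and 13 counts in PDGF-. ITGA7, a laminin receptor subunit of muscle, had 16, 14 and 14 counts in PDGF+ against 25, 42 and 24 counts in PDGF-, and its log2 fold change was -1.37 ± 0.38 (edgeR's adjusted p = 0.041). Leaving out replicate 2 or 3 of either group ended the calls of both genes. The largest adjusted p was 0.071 for ITGA6 and 0.14 for ITGA7, whose call was also lost without PDGF+ replicate 1. The number of lower members was then 3 without PDGF+ replicate 1, 2 without PDGF+ replicate 2 and 3 without PDGF+ replicate 3. It was 1 without PDGF- replicate 2 and 2 without PDGF- replicate 3. No share over all genes is given for these fits.

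Of the 3 tested alpha subunits that bind the RGD motif, 1 was higher. ITGA8, the nephronectin receptor subunit of mesenchymal cells, stood at 33.1, 30.2 and 29.5 CPM in PDGF+ and at 7.80, 8.24 and 6.47 CPM in PDGF-, with little spread within either group. Its log2 fold change was 2.04 ± 0.18 (edgeR's adjusted p = 2.96e-04). ITGA5, the alpha subunit of the main fibronectin receptor, was the most abundant alpha subunit per length. It held 83.4% ± 2.9 of the alpha subunits' summed TPM in PDGF+ and 88.4% ± 1.3 in PDGF-, in both cases without ITGAE, ITGAD and ITGAX, whose reads were not their own. ITGA5 itself stood at 797, 934 and 998 CPM in PDGF+ and at 677, 786 and 794 CPM in PDGF-. This difference, a log2 fold change of 0.27 ± 0.13, passed only with the replicate block (edgeR's adjusted p = 0.20 without it and 2.8e-06 with it).

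ITGAV, which pairs with several beta subunits to bind vitronectin, lay at 53.3, 39.7 and 46.0 CPM in PDGF+ and at 54.9, 51.9 and 38.6 CPM in PDGF-. The groups overlapped, and the log2 fold change was -0.07 ± 0.19 (edgeR's adjusted p = 0.84). ITGA2B, the platelet subunit, had 1, 3 and 1 counts against 1, 11 and 0 counts and was not tested.

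ITGA4, a receptor subunit for fibronectin and VCAM1 known from leukocytes and mesenchymal cells, was higher at 10.9, 10.01 and 10.7 CPM in PDGF+ against 4.60, 5.27 and 4.31 CPM in PDGF-. The log2 fold change was 1.16 ± 0.20 (edgeR's adjusted p = 0.0061). ITGA9, its closest relative, ranged from 0.57 to 1.76 CPM over the 6 libraries, with overlapping groups and a log2 fold change of -0.21 ± 0.49. Of the 5 leukocyte alpha subunits 1 passed the filter. ITGAE, which pairs with ITGB7 to bind E-cadherin, stood at 25.5, 26.6 and 24.0 CPM in PDGF+ and at 17.9, 18.9 and 14.8 CPM in PDGF- (log2 fold change 0.56 ± 0.17, edgeR's adjusted p = 0.050, just over the threshold, and 2.8e-04 with the replicate block). Its counts were identical to those of NCBP3 in all libraries, so they cannot be assigned to either gene. ITGAD and ITGAX likewise shared 1 set of counts (1, 3 and 10 against 6, 8 and 3). ITGAL had 3, 0 and 0 counts against 8, 0 and 0, and ITGAM had 2, 2 and 0 against 0, 5 and 1.

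Among the beta subunits, 3 of 6 tested were higher and none lower. ITGB3, which pairs with ITGAV to bind vitronectin, stood at 10.7, 10.4 and 13.1 CPM in PDGF+ and at 1.07, 2.87 and 2.74 CPM in PDGF-. All PDGF+ libraries were well above the others (log2 fold change 2.36 ± 0.35, edgeR's adjusted p = 0.0034). The log2 difference was 3.27 within batch 1, where the PDGF- library was lowest, and 2.03 within batch 2. Platelets also carry ITGB3, and their 4 markers, ITGA2B among them, summed to between 0.14 and 0.31 CPM in PDGF+ and between 0 and 1.05 CPM in PDGF-, with GP9 at 0 counts in every library.

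ITGB2, the beta subunit shared by leukocyte integrins, stood at 20.9, 36.9 and 32.8 CPM in PDGF+ and at 5.34, 7.28 and 8.33 CPM in PDGF-. The groups were apart and batch 1 was lowest in each (log2 fold change 2.11 ± 0.27, edgeR's adjusted p = 0.0018). The usual partners ITGAL, ITGAM, ITGAX and ITGAD were at the few counts given above. The 9 macrophage and myeloid markers summed to between 18.0 and 20.1 CPM in PDGF+ and between 13.1 and 21.7 CPM in PDGF-. Most of this was CD68, a lysosomal protein; of the 9, 2 were tested and neither passed. CD14, the other one tested, had 10, 18 and 17 counts in PDGF+ and 25, 17 and 9 counts in PDGF-. CD163, CSF1R and LYZ had a few counts in every library, while PTPRC, the pan-leukocyte gene, was at 0 counts in every library. TYROBP had 2, 2 and 1 counts in PDGF+ and 0, 20 and 9 counts in PDGF-. FCER1G had 3, 0 and 3 counts against 9, 6 and 5, and CD86 had 0, 4 and 2 against 3, 4 and 0. Of 5 T cell markers, CD3E, CD3G and CD8A were at 0 counts as well, and the list summed to between 0.68 and 1.25 CPM in PDGF+ and between 0.29 and 1.47 CPM in PDGF-. The part of leukocytes in the ITGB2 difference was not tested.

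ITGB5, a further partner of ITGAV, was higher by a smaller factor, at 349, 497 and 484 CPM in PDGF+ against 225, 293 and 300 CPM in PDGF-. The log2 fold change was 0.70 ± 0.18 (edgeR's adjusted p = 0.033). The call was lost when replicate 2 or 3 of either group was left out, with adjusted p-values between 0.073 and 0.11. ITGB1, the partner of most alpha subunits, was the most abundant subunit per length, at 988 ± 303 TPM (SD, n = 3) in PDGF+ and 671 ± 235 TPM in PDGF-. In CPM it stood at 2170, 1468 and 1489 in PDGF+ and at 1686, 1107 and 1126 in PDGF-, so batch 1 of the lower group exceeded batch 2 of the higher one. The log2 fold change of 0.39 ± 0.22 did not pass (edgeR's adjusted p = 0.25) and did with the replicate block (adjusted p = 2.2e-09). The difference was 0.36 within batch 1 and 0.41 within batch 2.

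ITGB4, the partner of ITGA6 in hemidesmosomes, stood at 0.47, 1.88 and 4.06 CPM in PDGF+ and at 5.01, 9.96 and 9.01 CPM in PDGF-. The groups did not overlap, but the PDGF+ libraries differed widely among themselves. The log2 fold change was -1.91 ± 0.61 (edgeR's adjusted p = 0.065, and 1.2e-05 with the replicate block). ITGB8, which activates latent TGF-beta, ranged from 0.49 to 2.16 CPM over the 6 libraries, with overlapping groups. ITGB6 had 9, 3 and 5 counts against 5, 8 and 6. ITGB7 had 1, 0 and 2 counts against 2, 9 and 7, a ratio per total count of 0.13 with an exact 95% interval from 0.025 to 0.46 that covers counting error only.

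**Figure D2:**
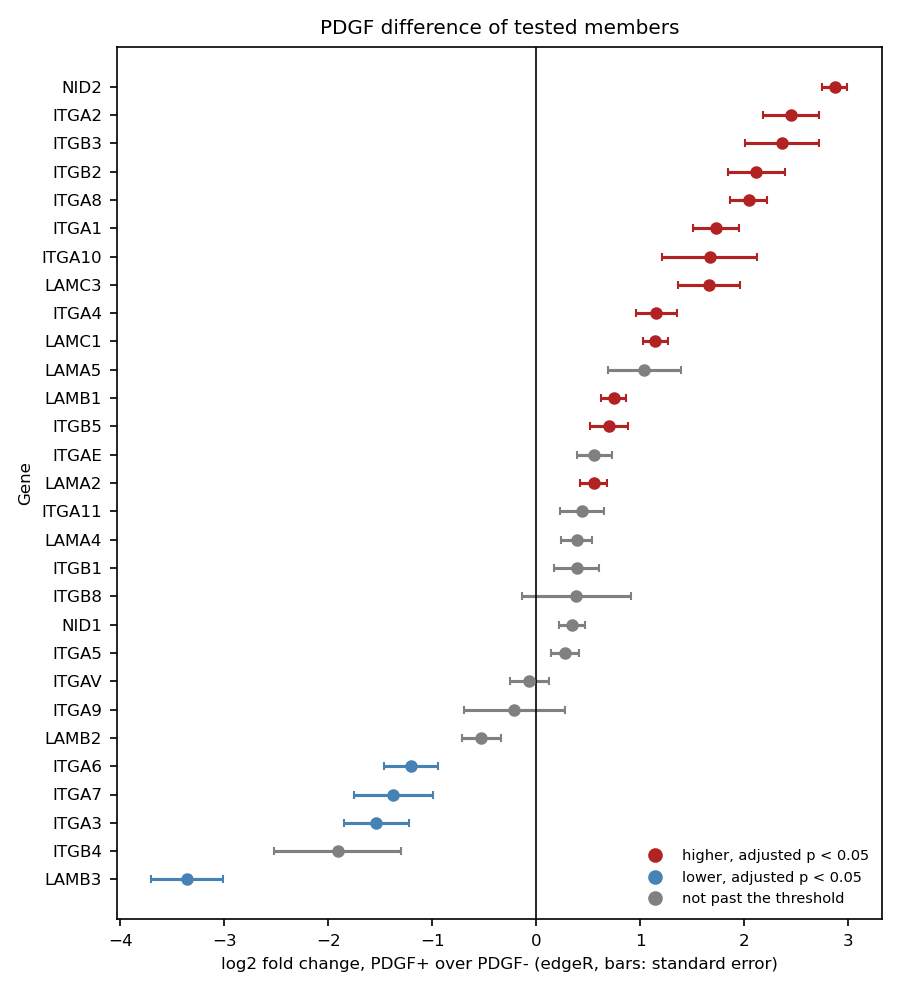
Log2 fold change of PDGF+ over PDGF- for 29 tested genes, with bars for the standard error of the edgeR fit on 3 against 3 libraries. The 13 genes called higher are red, the 4 called lower are blue, and the 12 plotted genes not past the threshold are grey; LAMA5 and ITGB4 are the grey points with the largest differences.

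Among the laminin alpha chains, which carry the part that integrins bind, 1 of 3 tested was higher. LAMA2, the main alpha chain of muscle and stroma, stood at 589, 532 and 517 CPM in PDGF+ and at 416, 342 and 357 CPM in PDGF-. The log2 fold change was 0.55 ± 0.13 (edgeR's adjusted p = 0.022), and leaving out replicate 2 or 3 of either group ended the call, with adjusted p-values between 0.060 and 0.10. LAMA4, a chain of vessels and stroma, showed a log2 fold change of 0.39 ± 0.15 (edgeR's adjusted p = 0.11, and 6.4e-06 with the replicate block). Its levels were 129, 110 and 110 CPM against 100, 81.8 and 83.8 CPM. LAMA5, the widely used chain of epithelial and vascular basement membranes, stood at 30.2, 65.0 and 73.9 CPM against 18.6, 34.0 and 29.7 CPM, so the batch 1 library of PDGF+ lay among the PDGF- libraries. Its log2 fold change was 1.04 ± 0.35 (edgeR's adjusted p = 0.078, and 3.3e-08 with the replicate block).

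The proportions of the alpha chains differed by a few percentage points at most. LAMA2 held 69.6% ± 1.7 of their summed TPM in PDGF+ and 68.8% ± 0.92 in PDGF-, with overlapping groups. LAMA4 held 25.2%, 23.1% and 23.3% in PDGF+ and 27.2%, 26.2% and 26.0% in PDGF-, without overlap. LAMA5 held 3.24%, 7.50% and 8.60% against 2.77%, 5.96% and 5.06%, higher in PDGF+ at each replicate number while the groups overlapped. LAMA3, the epithelial chain, had 5 counts in each PDGF+ library and 28, 1 and 8 counts in PDGF-, and was not tested. Most of its counts in PDGF- came from 1 library.

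The laminin beta chains had values in opposite directions. LAMB1, the widespread beta chain, was higher at 580, 554 and 528 CPM in PDGF+ against 360, 315 and 317 CPM in PDGF- (log2 fold change 0.75 ± 0.12, edgeR's adjusted p = 0.0047). LAMB2, the chain of muscle, nerve and kidney basement membranes, stood at 170, 263 and 234 CPM against 271, 343 and 347 CPM, with every PDGF+ library below every PDGF- library. Its log2 fold change of -0.53 ± 0.19 did not pass (edgeR's adjusted p = 0.090) and did with the replicate block (adjusted p = 1.1e-08). Per gene length, LAMB1 and LAMB2 did not differ beyond their spread in PDGF-, at 108 ± 18 and 108 ± 5.4 TPM. In PDGF+ they stood at 205 ± 23 and 84.96 ± 13 TPM. LAMB1 thus held 76.4%, 66.8% and 68.3% of the beta chains' TPM in PDGF+ and 55.4%, 46.2% and 46.0% in PDGF-, and the groups did not overlap.

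LAMB3, the beta chain of the epithelial laminin that anchors hemidesmosomes, was the member with the largest decrease. It had 11, 8 and 6 counts in PDGF+ against 59, 70 and 76 counts in PDGF-, which is 0.74, 0.63 and 0.45 CPM against 4.85, 6.71 and 7.45 CPM. The level in PDGF- was 10.2 times that in PDGF+ (log2 fold change -3.35 ± 0.35, edgeR's adjusted p = 6.3e-04), with log2 differences of -2.65 within batch 1 and -3.64 within batch 2. In the annotation of Mmul_10 its exons overlap those of CAMK1G on the opposite strand over 139 bases. LAMB4 had 4 counts in 1 PDGF+ library and 12 in 1 PDGF- library, and 0 in the other libraries.

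LAMB3 joins with LAMA3 in that laminin, and ITGA3, ITGA6 and ITGB4 are its receptor subunits. Of these 5 genes, LAMB3, ITGA3 and ITGA6 were called lower, ITGB4 was lower with the replicate block, and LAMA3 was not tested. Markers of epithelial cells moved with them. Of 8 such markers 7 were tested and 5 were lower, none higher, and the list summed to between 37.6 and 54.9 CPM in PDGF+ and between 182 and 248 CPM in PDGF-. KRT7, a keratin of simple epithelia, had 11, 6 and 13 counts in PDGF+ and 1049, 1245 and 1198 counts in PDGF-. ELF3, an epithelial transcription factor, had 0 counts in each PDGF+ library and 49, 40 and 54 counts in PDGF-. The part of these markers' cells in the lower members was not tested.

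**Figure D3:**
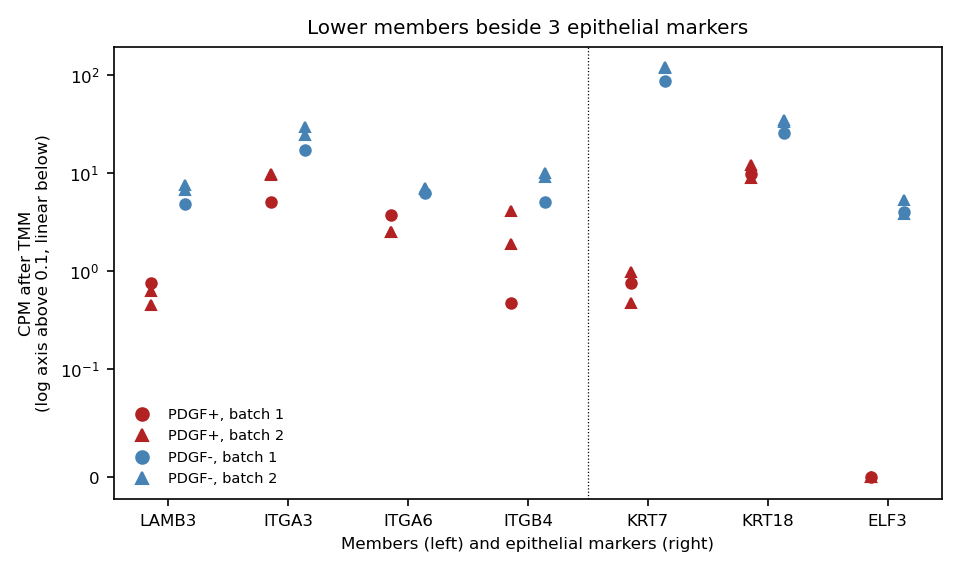
CPM, on a log axis that is linear below 0.1, of 4 receptor subunit and laminin chain genes and of 3 of the 8 epithelial markers in the 6 libraries, with groups by colour and batches by shape. The PDGF- libraries lie above the PDGF+ libraries for each of the 7 genes, and ELF3 is at 0 in each PDGF+ library.

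Of the laminin gamma chains, 2 were higher and none lower. LAMC1, the gamma chain of most laminins, stood at 446, 394 and 403 CPM in PDGF+ and at 200, 179 and 182 CPM in PDGF-. The libraries of a group were close to each other, and the log2 fold change was 1.15 ± 0.12 (edgeR's adjusted p = 8.1e-04). LAMC3, a gamma chain of few tissues, stood at 32.8, 52.7 and 59.9 CPM against 10.3, 16.3 and 19.5 CPM, again without overlap (log2 fold change 1.66 ± 0.30, edgeR's adjusted p = 0.0077). In both groups batch 1 was the lowest for LAMC3. LAMC1 made up 85.1% ± 3.8 of the gamma chains' TPM in PDGF+ and 86.2% ± 2.0 in PDGF-. Summed per family, the alpha chains stood at 175 ± 20 and 107 ± 20 TPM, the beta chains at 290 ± 12 and 220 ± 13 TPM, and the gamma chains at 138 ± 13 and 54.4 ± 7.1 TPM in PDGF+ and PDGF-. The 3 libraries of PDGF+ lay above those of PDGF- in each of the 3 sums.

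NID2, a nidogen, was the member with the largest increase and the smallest adjusted p. It stood at 557, 585 and 567 CPM in PDGF+ and at 76.4, 79.9 and 77.6 CPM in PDGF-. The 3 libraries of each group agree closely, and the level with PDGF was 7.30 times that without (log2 fold change 2.87 ± 0.12, edgeR's adjusted p = 3.0e-05). The log2 difference was 2.87 within each batch. In the annotation of Mmul_10, NID2 overlaps RTRAF on the opposite strand over 523 exonic bases, and whether reads were counted by strand is not given in the sources used here.

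NID1, the more abundant nidogen, stood at 2959, 2747 and 2724 CPM in PDGF+ and at 2528, 2082 and 2017 CPM in PDGF-. The groups did not overlap, but its log2 fold change of 0.35 ± 0.12 did not pass (edgeR's adjusted p = 0.090, and 4.1e-08 with the replicate block). Of the nidogens' summed TPM, NID2 held 9.34%, 10.4% and 10.2% in the PDGF+ libraries and 1.63%, 2.06% and 2.06% in the PDGF- libraries.

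**Figure D4:**
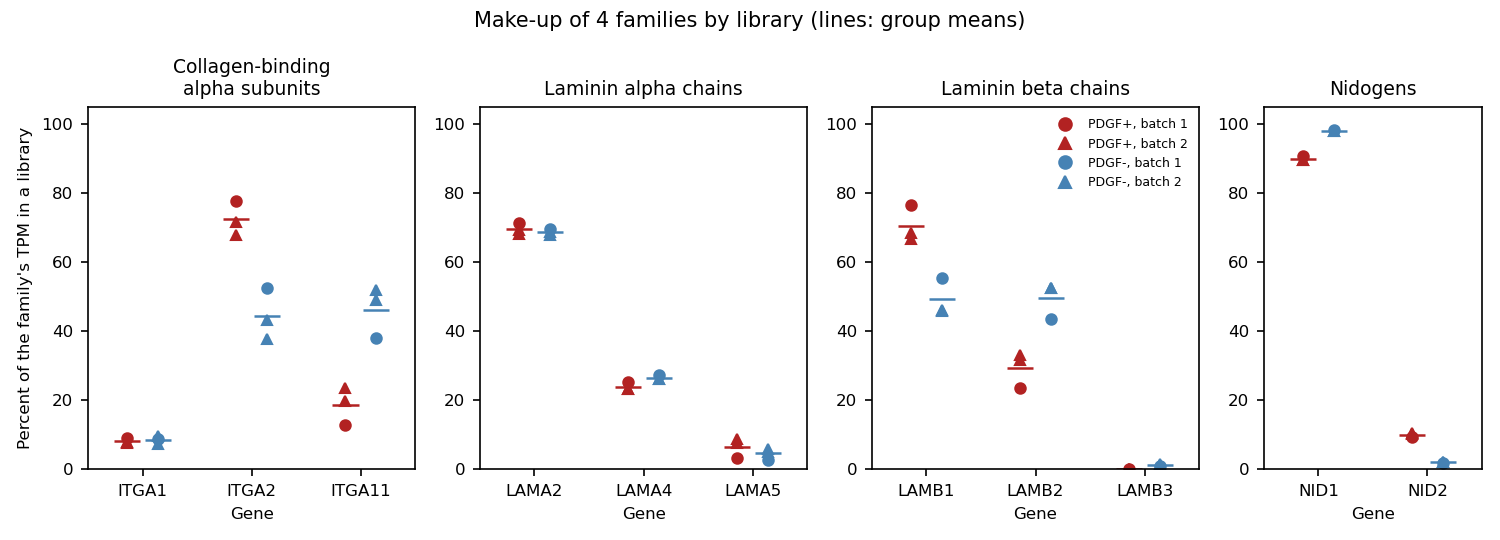
Share of each gene in the summed TPM of its family, in percent, per library (points, shapes for batches) and as the mean of 3 libraries (lines), for the collagen-binding alpha subunits, the laminin alpha and beta chains and the nidogens. ITGA2, LAMB1 and NID2 hold larger shares in PDGF+, ITGA11 and LAMB2 smaller ones, and the shares of LAMA2 are close to 70% in both groups. Genes with a mean under 1% in both groups, ITGA10, LAMA3 and LAMB4, are left out.

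Per gene length, the order of the members was headed by NID1, ITGB1, ITGA5 and ITGB5 in both groups. LAMB1 came next in PDGF+, and in PDGF- it shared this place with LAMB2. NID1 and ITGB1 did not differ beyond their spread, at 1076 ± 123 and 988 ± 303 TPM in PDGF+ and at 752 ± 166 and 671 ± 235 TPM in PDGF-. ITGA5 followed at 456 ± 30 and 333 ± 1.0 TPM, and ITGB5 at 317 ± 40 and 172 ± 12 TPM. In PDGF+ LAMA2, NID2 and LAMC1 came next at 122 ± 17, 119 ± 5.6 and 118 ± 16 TPM, with no difference beyond their spread. In PDGF- NID2 held rank 10 at 14.4 ± 1.1 TPM, and in PDGF+ it held rank 7. ITGB3 moved from rank 27 to rank 19 and ITGA8 from rank 23 to rank 16. The ranks named here were the same when the longest transcript replaced the merged exons as the length.

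The 2 batches gave the same direction for 29 of the 30 tested members. For all 17 called members the direction was the same in both batches, but they were called on these same libraries, so this is no separate check. A test of whether the PDGF difference depended on batch called 0 members and 0 of all genes tested (edgeR, adjusted p under 0.05). At an unadjusted p under 0.05 it picked 4 members, ITGB3, ITGB4, LAMA5 and NID1, and 526 of all genes. The batches themselves differed for many members: 24 of 30 had the same batch direction in both groups, and for 4 the mean batch difference was larger than the PDGF difference. These counts of agreeing directions, and the count of calls kept below, have no share over all genes beside them and describe the members only. When replicates 2 and 3 of each group, which share a batch, were summed to 1 library, 8 of the 17 calls remained: NID2, ITGA2, ITGA8, ITGB3, ITGB2, ITGA1, LAMC1 and LAMB3.

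**Figure D5:**
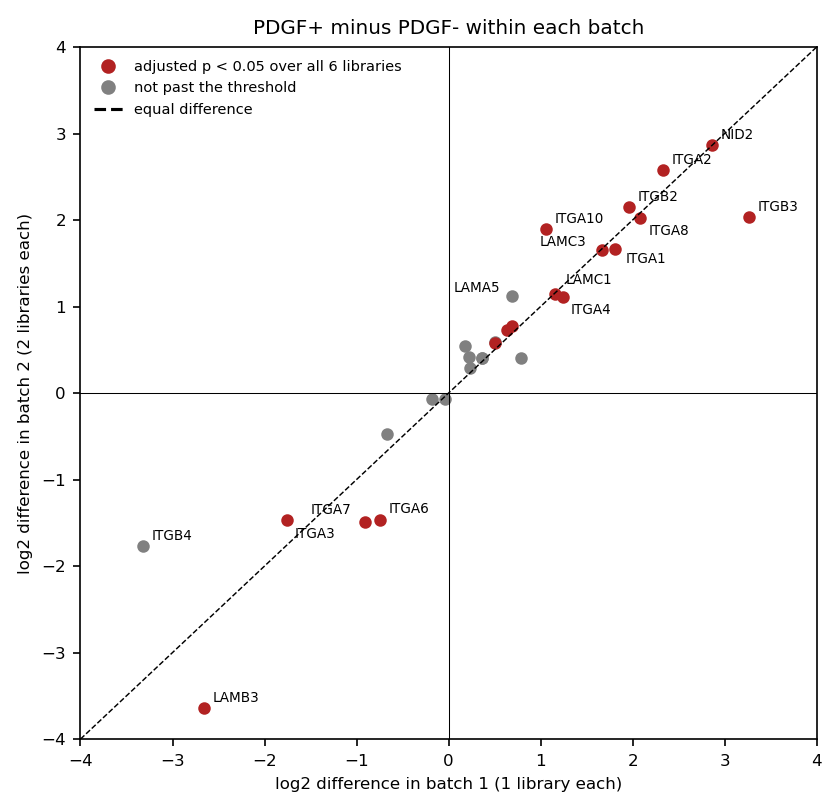
Log2 difference of PDGF+ minus PDGF- within batch 1 (1 library a group, x axis) and within batch 2 (2 libraries a group, y axis) for 29 tested genes, with the dashed line at equality and the 17 called genes in red. NID2, LAMC3 and LAMC1 lie on the line, and ITGB3 at 3.27 and 2.03 and LAMB3 at -2.65 and -3.64 lie off it.

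Members are long genes. By merged exon length, 20 of the 30 tested members were in the longest of 4 equal classes of the tested genes, in which the median log2 fold change was 0.15, and 11.7% of its genes were called higher and 7.76% lower. In the shortest class, which held 0 members, the median was -0.13. By GC content, the highest of 4 classes held 10 members, among them ITGA3, ITGA7 and LAMB3. Its median was -0.24, with 2.85% of its genes called higher and 13.0% lower. The lowest class held 6 members, and its median was 0.20. With the replicate block and an offset for GC content and length, all 17 calls were kept, and the log2 fold change was 2.69 for NID2, 2.23 for ITGA2 and -3.13 for LAMB3. ITGAV was called lower only there, with a log2 fold change of -0.32 (edgeR's adjusted p = 0.0066). The offset was not run without the replicate block, which by itself called 31.1% and 29.0% of all genes. How the calls of the fit without a block depend on GC content and length is therefore not shown.

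Other genes of the basement membrane, and the 2 further lists below, had calls in both directions. Over all genes tested, 7.61% were called higher and 10.7% lower, and with the replicate block 31.1% and 29.0%. Of 24 such genes, 19 were tested, 4 were higher and 2 lower, with a median log2 fold change of 0.19. COL15A1, a collagen at the border of basement membrane and stroma, stood at 584, 640 and 626 CPM against 136, 150 and 126 CPM (log2 fold change 2.17 ± 0.13, edgeR's adjusted p = 7.5e-05). COL4A1, an alpha chain of the collagen IV network that nidogens bind, stood at 423, 409 and 406 CPM against 108, 101 and 94.5 CPM (2.03 ± 0.12, adjusted p = 8.0e-05). EGFLAM, which links dystroglycan to the matrix, was the third by size with a log2 fold change of 1.78 ± 0.23. The lower ones were NTN4, a netrin that binds laminin gamma chains, at -3.66 ± 0.43 and HMCN1, a large matrix protein, at -2.64 ± 0.27. With the replicate block 7 of the 19 were higher and 6 lower.

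Of 40 genes of the integrin adhesion complex 36 were tested, 9 were higher and 3 lower, and the median log2 fold change was 0.17. NEDD9, a docking protein of focal adhesions, had a log2 fold change of 1.62 ± 0.15 (edgeR's adjusted p = 3.6e-04). TNS1, which ties integrins to actin, had 1.44 ± 0.17 (edgeR's adjusted p = 0.0011), and PXN, the scaffold paxillin, had 1.24 ± 0.29 (edgeR's adjusted p = 0.022). TNS4, a tensin of epithelial cells, was lower at 0, 0.08 and 0.08 CPM against 1.73, 2.40 and 1.47 CPM (log2 fold change -4.98 ± 0.68), as was SVEP1, a ligand of ITGA9, at -0.52 ± 0.15. With the replicate block 21 of the 36 were higher and 6 lower, where 31.1% and 29.0% of all genes were called.

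Of 22 further integrin ligands 16 were tested, 3 were higher and 4 lower, and the median log2 fold change was -0.08. COL6A1 and COL6A3, chains of the microfibrillar collagen VI, had log2 fold changes of 1.58 ± 0.27 and 1.08 ± 0.10, and FBN1, the fibrillin of elastic microfibrils, had 0.57 ± 0.11. CDH1, the epithelial cadherin that ITGAE binds and 1 of the 8 epithelial markers above, was lower at -2.84 ± 0.67. POSTN, the matrix protein periostin and a ligand of ITGAV receptors, fell by 1.77 on the log2 scale, from 1128, 687 and 665 CPM to 331, 204 and 189 CPM. ICAM1, the ligand of ITGB2 integrins, was lower at -1.24 ± 0.20. With the replicate block 6 of the 16 ligands were higher and 5 lower, where 31.1% and 29.0% of all genes were called.

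Markers of other cells than epithelial ones also differed between the groups. The spermatid markers given above were lower in PDGF+. The 6 pericyte markers summed to between 560 and 809 CPM in PDGF+ and between 446 and 606 CPM in PDGF-, with 2 of 6 tested higher. The 9 endothelial markers summed to between 66.6 and 75.1 CPM in PDGF+ and between 31.0 and 54.1 CPM in PDGF-. Of the 8 tested, FLT1 was called higher and ERG lower. FLT1 alone stood at 39.2, 31.0 and 37.8 CPM in PDGF+ and at 2.38, 0.57 and 2.16 CPM in PDGF-. The log2 fold change was above 0 for 4 of the 8 and below 0 for 4, so the list did not move as a whole. The 8 markers of peritubular myoid and smooth muscle cells summed to between 392 and 516 CPM and between 717 and 935 CPM. Of the 7 tested, DES and ACTA2 were lower and none was higher. The part of these cells in the members' differences was not tested.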

How the data were processed

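Bulk RNA sequencing of 3 SSC PDGF+ and 3 SSC PDGF- libraries was taken from the authors' table. The authors deposited expected counts per gene without normalization; 34 values of 13 genes, no member among them, were not whole, and all were rounded. The submitters' processing notes name fastp, HISAT2 2.1.0, SAMtools and featureCounts 2.0.1 and the builds Mmul_10 and Mmul_8.0.1, so no coordinates are given. Members were found by symbol, and every member is counted; a few results are not reported here. Each called member is named with its 6 values, as is the most abundant member of a role group without a call, and values of further members are added. The members and gene lists were chosen with earlier results of these data known, and the lists were written by hand.

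Counts were scaled by TMM and tested with edgeR 4.0.16 (R 4.3.3, filterByExpr by group, quasi-likelihood test, two-sided, no block). The standard error is the absolute log2 fold change over the square root of F. TPM used merged exon lengths in the Mmul_10 annotation, matched by symbol for 17021 of 17795 genes. Differences within batches had 0.5 counts added. An interaction with batch was tested in the same way. Alternatives included limma-voom (limma 3.58.1) and DESeq2 1.42.0. On simulated counts over 11416 genes, with the mean levels and depths of these libraries, edgeR recovered 143 of 199 changed genes with 4 false calls. The simulated libraries were independent and had no batch effect. They therefore do not show the error rate for libraries that share a batch or a culture. Over genes, the deviations of the replicate 1 libraries from their groups correlated with r = 0.73, those of replicate 2 with 0.35 and those of replicate 3 with 0.37. The cross pairs within batch 2 gave 0.39 and 0.36, so for replicates 2 and 3 the correlation follows the batch as much as the number. The labels give both libraries of a number the same batch, so the numbers were taken to pair the libraries. Totals were between 10593805 and 14102697 counts.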

Additional observations from a re-analysis of the deposited data

How the results depend on the processing

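Direction was compared between the alternatives for the 17 called members and ITGAE, and none of these reversed. The called members had been picked for their differences. Other members were not compared in this way, and 29 of the 30 tested had the same direction in both batches. With the replicate block the share of all genes called also rose, from 7.61% to 31.1% higher and from 10.7% to 29.0% lower. For the other settings below no share over all genes is given, so their counts describe the members only. The number of higher members, 13, became 20 with the replicate block, with batch as a term, with batch 2 alone, with the replicate block and an offset for GC content and length, and with replicates 2 and 3 summed and batch as a term, an alternative chosen after seeing the data. It was 7 with replicates 2 and 3 summed and no such term. The number of lower members, 4, became 7 with the replicate block and the offset, and it was 1 with replicates 2 and 3 summed and 1 at an adjusted p under 0.01. Leaving out 1 library gave between 10 and 15 higher and between 1 and 6 lower members. It ended no call of 11 of the 17 called members, while ITGA10, ITGA7, ITGA6, ITGA3, ITGB5 and LAMA2 each lost theirs in at least 1 case. The replicate block ended no call. ITGA7 also lost its call in limma-voom, and ITGA7 and ITGA10 lost theirs without a count filter. RLE, upper quartile and no factors moved the median log2 fold change of all genes from 0.02 to 0.01, -0.05 and 0.03, and left 13 members higher in each case. Depth limits the genes with few counts: without a count filter edgeR called 0 of the 9 members below it, with a lowest adjusted p of 0.13 for ITGB7, the 1 of them at an unadjusted p under 0.05, and ITGB4 passed (adjusted p = 0.049). Whether replicates 2 and 3 are separate cultures decides how far the p-values reach.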
